A study of Homo sapiens with 6 samples.

Results

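Annexins are calcium-dependent proteins that bind negatively charged phospholipids of cell membranes. In the RNA of A549 cells, 10 annexin genes were followed, ANXA1 to ANXA8, ANXA10 and ANXA11, out of 23180 gene symbols in the count table. Members were chosen by gene symbol, and of each gene's transcripts, the 1 that had most counts in the 6 samples together was used. A549 is an established human lung adenocarcinoma cell line, here with the genotype label WT and at passage 11. In 3 samples the cells had received a control siRNA (siControl), and in 3 samples siKMT9α#1, an siRNA against KMT9α. KMT9α, encoded by N6AMT1, is the catalytic subunit of a methyltransferase that acts on lysine 12 of histone H4. The comparison asked how knock-down of KMT9α changed the transcripts of these cells 3 days after transfection. Annexin V is widely known as a staining reagent for dying cells, but that reagent is added protein and is unrelated to the transcript counts given here.

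Each annexin has a core of repeats that bind calcium and phospholipid and a variable N-terminal tail that sets its partners. Some tails bind small calcium-binding proteins of the S100 family, which join annexins into larger complexes. Annexins assemble where calcium enters a damaged cell, and several of them take part in resealing the plasma membrane. They also work in endosome traffic, in the link of membranes to actin and, outside the cell, in inflammation and fibrinolysis. In lung and other epithelial cells, several annexins are abundant.

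Total counts per sample, with 1 transcript per gene, lay between 13740097 and 19832395.5. N6AMT1, the targeted gene, had 10.2, 10.9 and 11.4 CPM (counts divided by the library's TMM-adjusted total and put on a common scale) in the 3 siControl samples and 2.87, 3.22 and 3.35 CPM in the 3 siKMT9α#1 samples. Its log2 fold change was -1.77 (SE 0.12, adjusted p = 1.43e-10, quasi-likelihood test of edgeR, p adjusted by Benjamini-Hochberg over the 13877 genes tested). The summed level of 6 epithelial markers (KRT8, KRT18, KRT19, KRT7, EPCAM, CDH1) was 4402 to 4886 CPM with siControl and 2943 to 3130 CPM after knock-down, and 5 of the 6 had at least 1 CPM in every sample. KRT8 and KRT18 made up most of the drop in this sum (log2 fold changes -1.28 and -0.75), KRT19 (-0.68) and EPCAM (-2.76) were also lower, CDH1 was higher (1.34, adjusted p = 3.11e-07) and KRT7 was not called (0.01, adjusted p = 0.876). Among markers of other cells, 6 of fibroblasts summed to at most 8.66 CPM, 6 of leukocytes to at most 7.91 CPM and 5 of endothelial cells to at most 1.17 CPM in any sample. COL1A2 of fibroblasts and CD3E of T cells had no count in any sample, and 0 counts allow a level of up to 0.156 to 0.227 CPM (3 counts per library, counting error only). The part of these marker differences in the annexin results was not tested.

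After knock-down, 5 annexins were higher, 4 were lower and 1, ANXA8, was not called. ANXA2, ANXA4, ANXA5, ANXA1 and ANXA10 rose, and ANXA6, ANXA7, ANXA11 and ANXA3 fell. A gene was called at an adjusted p under 0.05, which 37.1% of the 13877 genes tested met as higher and 38.5% as lower. Calls were thus common among all genes, and the number of annexins called says little about the family. At the study's threshold of p under 1e-08 and an absolute log2 fold change over 0.26, 4 annexins were higher (ANXA1, ANXA2, ANXA4, ANXA5) and 2 were lower (ANXA6, ANXA7), beside 13.5% and 10.7% of all genes. The split at this threshold depended on scaling: with library size alone in place of TMM factors, 2 annexins were higher and 2 lower, and over all genes 1516 were higher and 1862 lower in place of 1878 and 1479. More than 2-fold changes were found for ANXA2 and ANXA4, which were higher, and ANXA6, which was lower, beside 10.1% and 10.3% of all genes. For 9 of the 10 annexins no siKMT9α#1 sample fell within the range of the controls or the reverse, and 77.0% of all genes showed such a separation. The median log2 fold change was 0.12 over the 10 annexins and -0.01 over all genes, and the median absolute log2 fold change was 0.52 and 0.47. In an exact two-sided permutation test over samples, p was 0.1 for each annexin but ANXA8 (p = 0.6), and 0.1 is the smallest p that 3 against 3 can give.

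**Figure D1:**
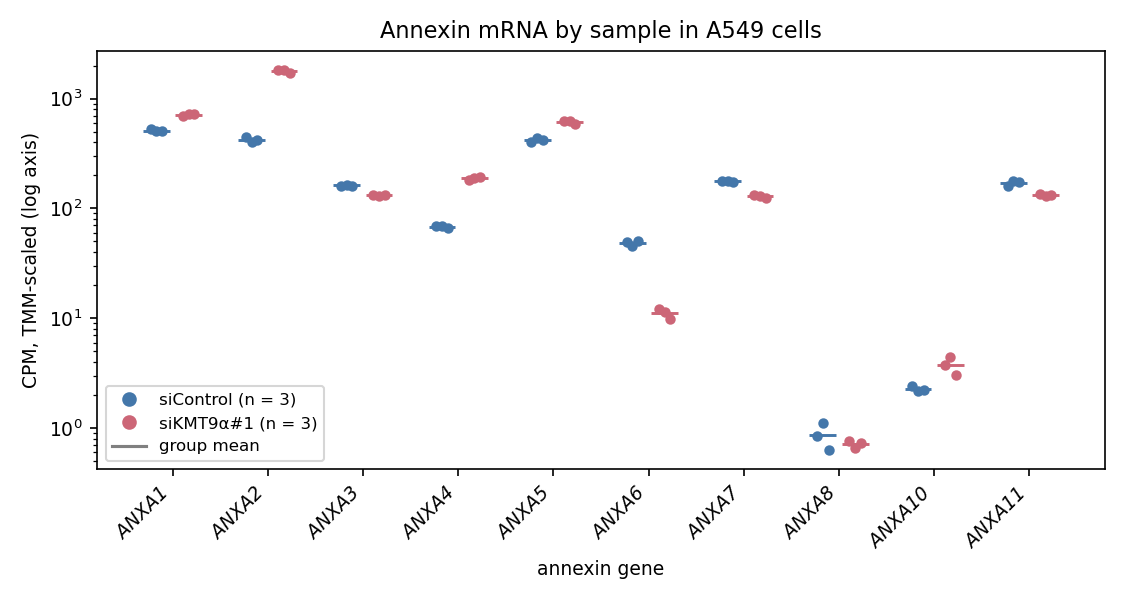
Level of each of the 10 annexins in every sample, in CPM on a log axis, with points for the 3 siControl and the 3 siKMT9α#1 samples and lines for the group means. ANXA2 lay at 404 to 445 CPM with siControl and 1731 to 1833 CPM after knock-down, and ANXA8 is the 1 gene whose groups overlap.

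ANXA2 rose 4.23-fold and, by the counts listed for it, became the most abundant annexin per length of transcript. It pairs with S100A10 into a tetramer that binds plasminogen at the cell surface and links membranes to actin. The gene, on the minus strand, takes up bases 60639350 to 60690185 of chromosome 15 (hg19), with 13 exons in the annotated transcript. It had 445, 404 and 424 CPM in the siControl samples and 1817, 1833 and 1731 CPM in the siKMT9α#1 samples. Every knock-down sample was far above every control sample, and the spread within either group was small beside the gap. The means were 424 ± 20.6 and 1794 ± 54.8 CPM (SD, n = 3 each), and the log2 fold change was 2.08 (SE 0.05, 95% interval 1.97 to 2.19, adjusted p = 5.72e-17). The rise of 1369 CPM ranked 4 among all genes tested, and the log2 fold change ranked 199. In bulk RNA, a change in the RNA per cell and a change in the share of cells that express a gene cannot be told apart.

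ANXA2 has processed pseudogenes, copies of its spliced transcript, and their counts moved with it. The closest, ANXA2P2 on chromosome 9, aligned to all 1017 coding bases of ANXA2 and was identical at 98.4% of them, with 16 mismatches. One stretch of 90 coding bases, from base 49 to 138 counted from the start codon, is shown, with the base that differs in capitals. It was the first such stretch within 1 exon whose mismatch count was closest to the average along the coding sequence. The stretch lies in exon 3 of 13, at chr15:60674551-60674640 (minus strand), and the copy at chr9:33624320-33624409 (plus strand), both GRCh37.
ANXA2: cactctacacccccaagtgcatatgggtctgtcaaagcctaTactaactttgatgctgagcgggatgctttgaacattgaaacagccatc
ANXA2P2: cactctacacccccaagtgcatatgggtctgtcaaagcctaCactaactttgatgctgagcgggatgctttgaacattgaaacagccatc
Of all windows of 50 bases along the coding sequence, 59.4% were identical to ANXA2P2 at every base. The same held for 44.01% of the windows of 75 bases and 31.3% of those of 100 bases. How reads with several matches were counted is not given in the sources used here, so the split of reads between ANXA2 and ANXA2P2 is uncertain.

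ANXA2P2 had 213.7, 215 and 213 CPM in the siControl samples and 986, 987 and 952 CPM in the siKMT9α#1 samples. Its groups were as far apart as those of ANXA2, with a log2 fold change of 2.19 (SE 0.05, adjusted p = 8.34e-18). The pseudogene's count was 50.5 ± 2.65% of the ANXA2 count with siControl and 54.4 ± 0.58% after knock-down (SD, n = 3 each). The sum of both loci was 4.34-fold higher after knock-down, and ANXA2 less ANXA2P2 was 3.89-fold higher. Because the pseudogene's share of the ANXA2 count changed little, these ratios had to lie close together. They cannot show which of the loci rose. ANXA2P1 (93.8% identity over 926 aligned bases) and ANXA2P3 (92.2% over 1007) had far fewer counts, at 0.40% and 0.16% of the ANXA2 count with siControl. They also rose, by log2 fold changes of 2.25 (adjusted p = 6.80e-11) and 1.96 (adjusted p = 6.30e-06), and ANXA2P1 overlaps TRIM2. The 4 ANXA2 transcripts in the table, which share most of their counts, had log2 fold changes of 2.08 to 2.11.

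**Figure D2:**
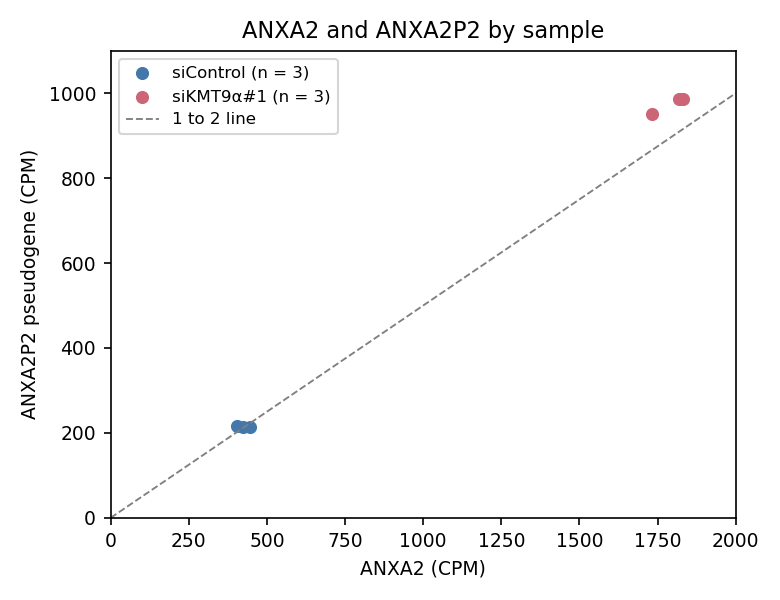
Level of the pseudogene ANXA2P2 against that of ANXA2, both in CPM, with 1 point for each of the 6 samples and a dashed line where ANXA2 is 2 times ANXA2P2. ANXA2P2 stood at 50.5% of ANXA2 on average with siControl and at 54.4% after knock-down.

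ANXA4 rose 2.76-fold and had the next largest rise by fold among the 10 members. ANXA4 is common in epithelia, where it binds and aggregates on membranes. Its transcript spans chromosome 2 from 69969127 to 70053596 on the plus strand. The siControl samples had 69.0, 69.0 and 66.3 CPM and the siKMT9α#1 samples 180.1, 190.0 and 194 CPM. The lowest knock-down sample was well above the highest control sample, with means of 68.1 ± 1.52 and 188 ± 7.23 CPM (SD, n = 3 each). The log2 fold change was 1.47 (SE 0.05, adjusted p = 3.12e-15).

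ANXA5 and ANXA1 rose less, and both were among the most abundant annexins in these cells. ANXA5 binds phosphatidylserine and forms ordered lattices on membranes, and its gene spans bases 122589152 to 122618147 of chromosome 4 (minus strand). It had 404, 435 and 417 CPM with siControl and 625, 630.4 and 591 CPM after knock-down. The groups did not overlap, and the log2 fold change was 0.56 (SE 0.05, adjusted p = 3.89e-09). ANXA1 is a glucocorticoid-responsive annexin whose N-terminal part dampens inflammation through formyl peptide receptors, and it spans bases 75766781 to 75785307 of chromosome 9 (plus strand). It had 529, 505 and 502 CPM with siControl and 700.4, 720.2 and 723 CPM after knock-down. Its level was 39.5% higher on average, with all 3 knock-down samples above all 3 controls and a log2 fold change of 0.48 (SE 0.05, adjusted p = 1.57e-08).

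ANXA10, best known from the stomach, was scarce. On chromosome 4 from 169013688 to 169108893 (plus strand), it had 2.39, 2.16 and 2.24 CPM with siControl and 3.78, 4.38 and 3.03 CPM after knock-down. The knock-down samples were higher and more spread, with a log2 fold change of 0.69 (SE 0.18, adjusted p = 0.00173). Its fold was larger than that of ANXA1, but at its low count it did not pass the study's threshold.

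ANXA6 fell by 77.1%, the largest fall among the 10 members. It carries a doubled core, binds late endosomes and the plasma membrane, and is known for roles in cholesterol traffic and Ras signalling. The gene spans bases 150480267 to 150537443 of chromosome 5 (minus strand), with 26 exons against 12 to 16 for the other members. The siControl samples had 49.0, 45.7 and 49.96 CPM and the siKMT9α#1 samples 12.1, 11.3 and 9.73 CPM. The highest knock-down sample was far below the lowest control sample. The log2 fold change was -2.14 (SE 0.08, adjusted p = 1.31e-14) and ranked 244 among all falls, and the 2 transcripts in the table gave -2.14 and -2.13.

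ANXA7, ANXA11 and ANXA3 fell by smaller amounts, each with tightly grouped samples. ANXA7, first described as a protein that aggregates secretory granules, lies on chromosome 10 from 75135189 to 75173841 (minus strand). It had 179, 178 and 173 CPM with siControl and 131.5, 129.7 and 124.6 CPM after knock-down. The log2 fold change was -0.46 (SE 0.05, adjusted p = 3.45e-08), with no overlap of the groups. ANXA11 has a long N-terminal tail, binds S100A6 and tethers RNA granules to lysosomes, and its gene lies on chromosome 10 from 81914880 to 81965328 (minus strand). It had 161, 176 and 175 CPM with siControl and 135, 129 and 133 CPM after knock-down, again without overlap. The log2 fold change was -0.36 (SE 0.05, adjusted p = 1.92e-06).

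ANXA3, known from neutrophils and endothelial cells, lies on chromosome 4 from 79472742 to 79531605 (plus strand). It had 161.4, 165 and 161.4 CPM with siControl and 132, 129.6 and 132 CPM after knock-down. The samples of each group lay close together, and the groups did not overlap. The log2 fold change was -0.31 (SE 0.05, adjusted p = 5.01e-06), and -0.16 when the fit corrected for GC content and length of the genes.

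ANXA8, known from stratified epithelia and late endosomes, was near the limit of detection. It had 0.85, 1.11 and 0.62 CPM with siControl and 0.76, 0.66 and 0.73 CPM after knock-down, from 9 to 18 counts per sample. The groups overlapped, with a log2 fold change of -0.24 (95% interval -0.87 to 0.39, adjusted p = 0.503). At this depth, changes within that interval could not be told apart from no change. The counted transcript lies on chromosome 10 from 47157984 to 47174122, where the GENCODE annotation of GRCh37 places ANXA8L1, and it shares its counts with a transcript listed under ANXA8L1. The value thus cannot be assigned to 1 of these near-identical genes.

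**Figure D3:**
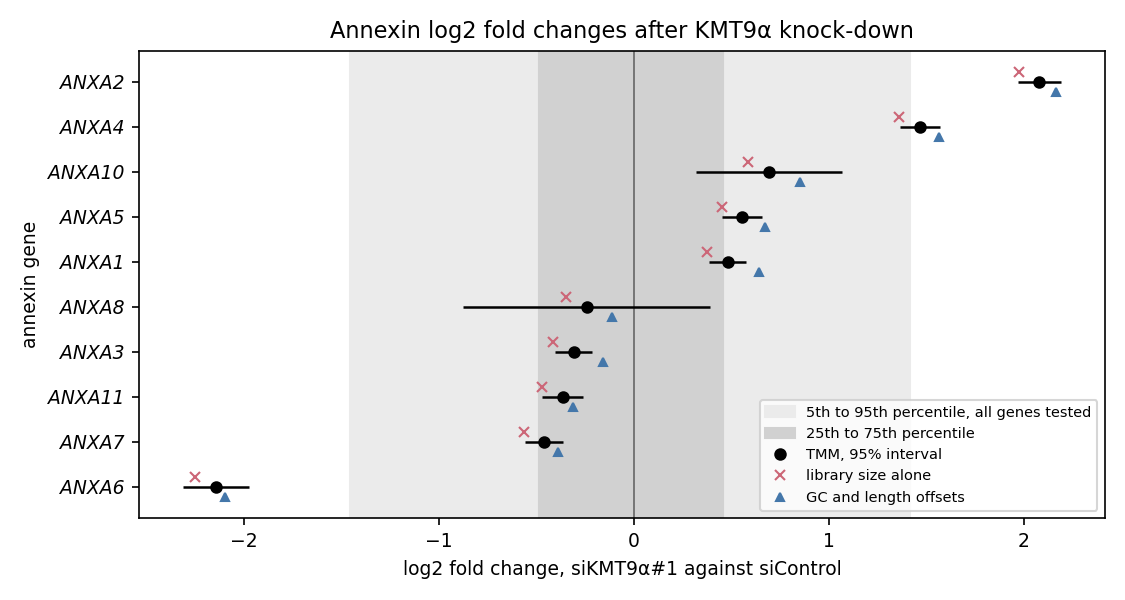
Log2 fold change of each annexin, siKMT9α#1 against siControl, with 95% intervals derived from the F statistic of the edgeR test (circles and bars). Crosses give the values with library size alone and triangles those with GC and length offsets. Dark and light bands span -0.49 to 0.46 and -1.45 to 1.42, which hold the middle 50% and 90% of all 13877 genes, and the circles of ANXA2, ANXA4 and ANXA6 lie outside both, while the cross of ANXA4 (1.36) lies inside the light band.

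Per length of transcript, the order of the annexins changed at the top, by the counts listed for each gene. With siControl the levels in CPM per kilobase ran from ANXA1 (373) through ANXA5 (266), ANXA2 (264), ANXA3 (102), ANXA7 (81.1), ANXA11 (63.3), ANXA4 (32.2), ANXA6 (16.4) and ANXA10 (1.59) to ANXA8 (0.43). ANXA5 and ANXA2 were the only neighbours in this order whose samples overlapped. After knock-down the order was ANXA2 (1116), ANXA1 (520.2), ANXA5 (391), ANXA4 (88.8), ANXA3 (82.4), ANXA7 (59.1), ANXA11 (49.2), ANXA6 (3.76), ANXA10 (2.62) and ANXA8 (0.35), with no neighbours that overlapped. ANXA4 thus passed ANXA3, ANXA7 and ANXA11, 3 annexins that fell. The pseudogene ANXA2P2, at 163 CPM per kilobase with siControl, was left out of this order. Since its split of reads with ANXA2 is uncertain, the place of ANXA2 with siControl is uncertain too.

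The annexin transcripts as a pool grew, mostly through ANXA2. The summed level of the 10 genes was 1200 ± 11.6 CPM per kilobase with siControl and 2313 ± 43.2 after knock-down (SD, n = 3 each), a ratio of 1.93. Without ANXA2 the sums were 936 ± 9.07 and 1197 ± 11.6, a ratio of 1.28. ANXA2 made up 22.0 ± 0.92% of the pool with siControl and 48.2 ± 0.62% after knock-down. The pool leaves out ANXA2P2, and the split of reads between it and ANXA2 is uncertain, so these shares are too. The share of ANXA1 was 31.1% and 22.5%, that of ANXA5 22.2% and 16.9%, and that of ANXA6 1.37% and 0.16%. ANXA1 and ANXA5 therefore held smaller shares of the pool although their own levels rose.

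**Figure D4:**
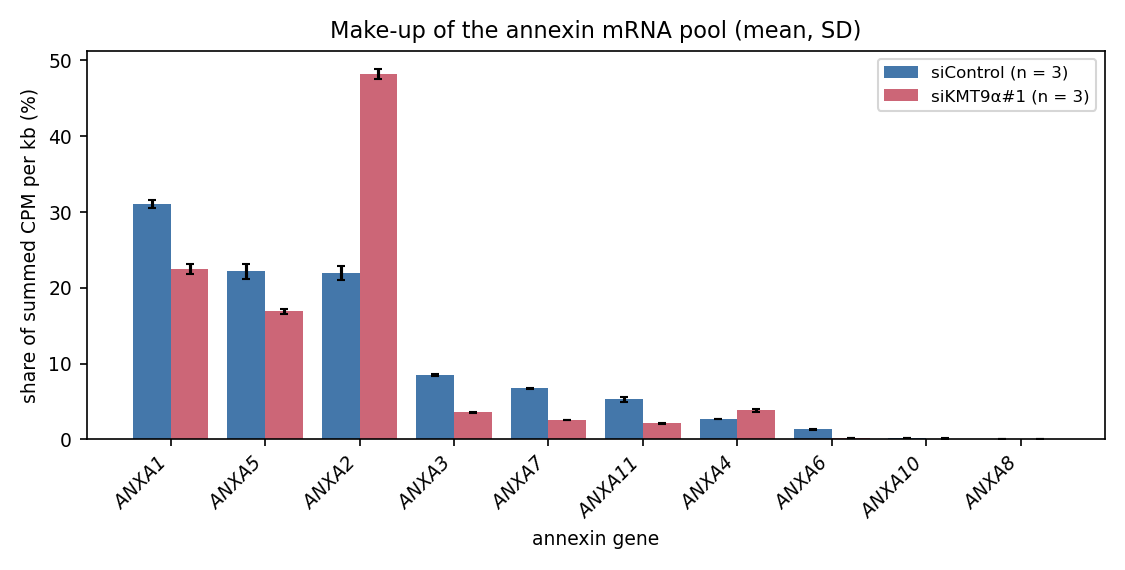
Share of each annexin in the summed CPM per kilobase of the 10 annexins, in percent, as bars for the mean of 3 siControl and of 3 siKMT9α#1 samples with error bars of 1 SD. With ANXA2P2 left out, ANXA2 goes from 22.0% with siControl to 48.2% after knock-down, and ANXA4 is the other annexin whose share is larger after it.

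The promoters of ANXA2 and ANXA6 are shown because, of the 10 members, these had the largest rise and the largest fall by fold. Each is the 250 bases before the RefSeq start (GRCh38.p14), and capitals mark motif matches on either strand. The motif of AP-1 was searched as TGACTCA, the GC box that Sp1 binds as GGGCGG, the E-box as CACGTG, and the core promoter motif near the start as TATAAA.
ANXA2, chr15:60397987-60398236, minus strand: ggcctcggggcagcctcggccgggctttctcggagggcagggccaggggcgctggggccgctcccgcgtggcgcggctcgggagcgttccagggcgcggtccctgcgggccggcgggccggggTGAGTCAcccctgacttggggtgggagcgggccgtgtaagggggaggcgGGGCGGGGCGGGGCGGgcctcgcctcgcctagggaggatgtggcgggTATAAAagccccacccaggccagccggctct
ANXA6, chr5:151157780-151158029, minus strand: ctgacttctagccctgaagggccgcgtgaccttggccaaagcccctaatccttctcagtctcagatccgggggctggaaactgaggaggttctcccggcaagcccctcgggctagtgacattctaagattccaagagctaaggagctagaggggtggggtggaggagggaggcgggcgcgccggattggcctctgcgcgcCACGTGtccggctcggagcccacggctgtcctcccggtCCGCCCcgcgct
The ANXA2 window held 1 match to TGACTCA, 3 matches to GGGCGG that overlap each other and 1 match to TATAAA, with 78.0% GC and 28 CpG dinucleotides. The ANXA6 window held 1 match to CACGTG and 1 to GGGCGG, with 65.6% GC and 19 CpG. A second ANXA6 start in the RefSeq table had none of these motifs. Over all 35116 promoter windows of this length, 4.20% held TGACTCA, 42.6% GGGCGG, 6.35% CACGTG and 10.7% TATAAA, with medians of 58.0% GC and 11 CpG. Promoters were found for 9 of the 10 annexins. Those of ANXA1 and ANXA10 held TATAAA and no CpG. These matches describe the letters of the windows and do not show binding of a factor.

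An siRNA can also act on transcripts whose 3′ UTR matches bases 2 to 8 of its guide strand, as a microRNA does. The 7-mer for siKMT9α#1 is ACATTCA, which 14.04% of the 12825 genes tested with an annotated 3′ UTR held. Of the 10 annexins, ANXA4 and ANXA8 each held 1 match, shown in capitals within 21 bases (GRCh37).
ANXA4, chr2:70054223-70054243, plus strand: ataaaggACATTCAtattctt
ANXA8, chr10:48271060-48271080, plus strand: gccattaACATTCAtctaaaa
ANXA4 was higher and ANXA8 was not called. None of the 4 annexins that fell held the 7-mer in the 1 annotated 3′ UTR searched per gene. With 14.04% of genes holding it, so few genes say little, and whether the siRNA acted through such matches was not tested. The ANXA4 match begins at base 1583 of a 3′ UTR of 1597 bases, beyond the end of the counted transcript at 70053596. The ANXA8 match lies at the locus GENCODE names ANXA8, while the counts listed for ANXA8 come from the transcript at 47157984 to 47174122, so this match and that value belong to different loci. The annotated 3′ UTR of ANXA8L1, GENCODE's name for the locus of that transcript, also held 1 match.

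Other annexin genes outside the 10 were scarce. ANXA13, an annexin of the intestine, had 0.21, 0.37 and 0.31 CPM with siControl and 2.27, 1.75 and 2.20 CPM after knock-down. Its log2 fold change of 2.79 (SE 0.29, adjusted p = 6.03e-08) rests on few counts in the controls. ANXA9, an atypical annexin, fell from 1.83 ± 0.38 to 0.73 ± 0.19 CPM (SD, n = 3 each), with a log2 fold change of -1.30 (adjusted p = 0.000259). ANXA8L1 had a log2 fold change of -0.08 (adjusted p = 0.715). ANXA2R, described as a receptor for ANXA2, had one of 0.19 (adjusted p = 0.397).

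The partners of annexins moved in both directions. Of the 18 S100 genes, 9 had enough counts to be tested, and 3 were higher, 4 lower and 2 not called, with a median log2 fold change of -0.09. These counts were near the shares over all genes, 37.1% higher and 38.5% lower. S100A10, the partner of ANXA2, had 459.9, 507 and 489 CPM with siControl and 597, 600.1 and 559.7 CPM after knock-down. The groups did not overlap, but the log2 fold change of 0.27 (SE 0.05, adjusted p = 8.22e-05) was much smaller than that of ANXA2. It was 0.16 with library size alone and 0.40 with the GC and length correction. S100A6, a partner of ANXA11, rose with a log2 fold change of 0.52 (adjusted p = 3.02e-07), and S100A3 with 0.64 (adjusted p = 1.92e-06). With the GC and length correction, S100A6 had 0.75 and S100A3 0.94. S100A11, a partner of ANXA1, was not called, with a log2 fold change of -0.09 (adjusted p = 0.167). Other settings called it in opposite directions, as higher with the GC and length correction (0.12, adjusted p = 0.00901) and as lower with library size alone (-0.20, adjusted p = 0.00620). Lower were S100P (-2.49, from 122 ± 1.81 to 21.8 ± 0.64 CPM), S100A2 (-1.40), S100A4 (-0.56, or -0.37 with the GC and length correction) and S100A13 (-0.36, or -0.14 with it), the last of which was named after its values were seen. FPR1, FPR2 and FPR3, the formyl peptide receptors through which ANXA1 acts, were too low to be tested. FPR1 had 1 count in 1 sample, FPR2 2 counts in 1 sample and FPR3 no count, so each was at or under the limit of 3 counts per library.

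Genes of plasma membrane repair, a process in which annexins form a patch, were also mixed. Of 22 genes, 21 were tested: 9 were higher, 6 lower and 6 not called, with a median log2 fold change of 0.07, and with library size alone 7 were higher and 10 lower. Over all genes 37.1% were higher and 38.5% lower with TMM factors, and 4359 and 6212 of 13877 with library size alone. The counts of repair genes lay near these shares, somewhat over them except for the 6 lower genes with TMM factors. CAV1, the main protein of caveolae, rose most, with 69.3, 62.4 and 66.4 CPM with siControl and 377, 374 and 389.7 CPM after knock-down. Its groups were far apart (log2 fold change 2.53, SE 0.05, adjusted p = 5.04e-18). EHD2, an ATPase of caveolae, rose with 0.78 (adjusted p = 6.09e-11). The giant scaffold AHNAK, which binds the ANXA2 and S100A10 complex, and the ferlin MYOF rose with 0.74 (adjusted p = 1.36e-10) and 0.70 (adjusted p = 5.50e-11). These were 0.11 and 0.40 with the GC and length correction. Lower were TSG101 of the ESCRT machinery (-1.11, adjusted p = 1.58e-13), the calcium sensor SYT7 (-0.75, adjusted p = 4.88e-05) and the calpain subunit CAPNS1 (-0.32, adjusted p = 8.24e-06). The fall of CAPNS1 was not called with the GC and length correction (-0.06, adjusted p = 0.160). DYSF, a ferlin that binds annexins in muscle, was not called (-0.27, adjusted p = 0.139), but it was called lower with the GC and length correction (-0.41, adjusted p = 0.025) and with library size alone (-0.37, adjusted p = 0.0424). PDCD6 and PDCD6IP, partners that link ANXA7 and ANXA11 to ESCRT, were not called either, and their calls depended on the setting too. PDCD6, which overlaps AHRR, had a log2 fold change of 0.07 (adjusted p = 0.176) and was called higher with the GC and length correction (0.22, adjusted p = 4.88e-05). PDCD6IP had one of -0.07 (adjusted p = 0.171) and was called lower with that correction (-0.27, adjusted p = 2.20e-06) and with library size alone (-0.18, adjusted p = 0.00181).

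Annexins share their calcium-dependent phospholipid binding with copines, and 6 of 9 copines were tested. Of these 4 were higher and 0 lower, with a median log2 fold change of 0.39, beside 37.1% higher and 38.5% lower over all genes, and with so few genes the count says little about copines. The largest rises were those of CPNE8 (1.38), CPNE7 (0.68) and CPNE1 (0.44, a gene that overlaps RBM12). Flippases and scramblases set how much phosphatidylserine, an annexin ligand, faces the outside of the cell. Of 19 such genes 15 were tested, and each of these was called, 9 as higher and 6 as lower, with a median log2 fold change of 0.32, where 37.1% and 38.5% of all genes were called. The count of higher genes was 6 with the GC and length correction, 7 with library size alone and 8 with the replicate block. Over all genes the same settings gave 5251 higher of 13652, 4359 of 13877 and 5017 of 13877. ATP11A, named after its values were seen, had a log2 fold change of 0.32 that turned to -0.01 with the GC and length correction. ATP10A rose 4.27-fold, from 4.88 ± 0.67 to 20.8 ± 0.75 CPM (SD, n = 3 each). The calcium-activated scramblase ANO6 (0.89) and PLSCR1 (0.76) were also higher. PLSCR3 (-1.23), the caspase-activated scramblase XKR8 (-1.07) and the flippase ATP9B (-0.93) were lower. ANO6, PLSCR3 and ATP10A overlap other annotated genes, and the strand setting of the counting is not given in the sources used here.

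**Figure D5:**
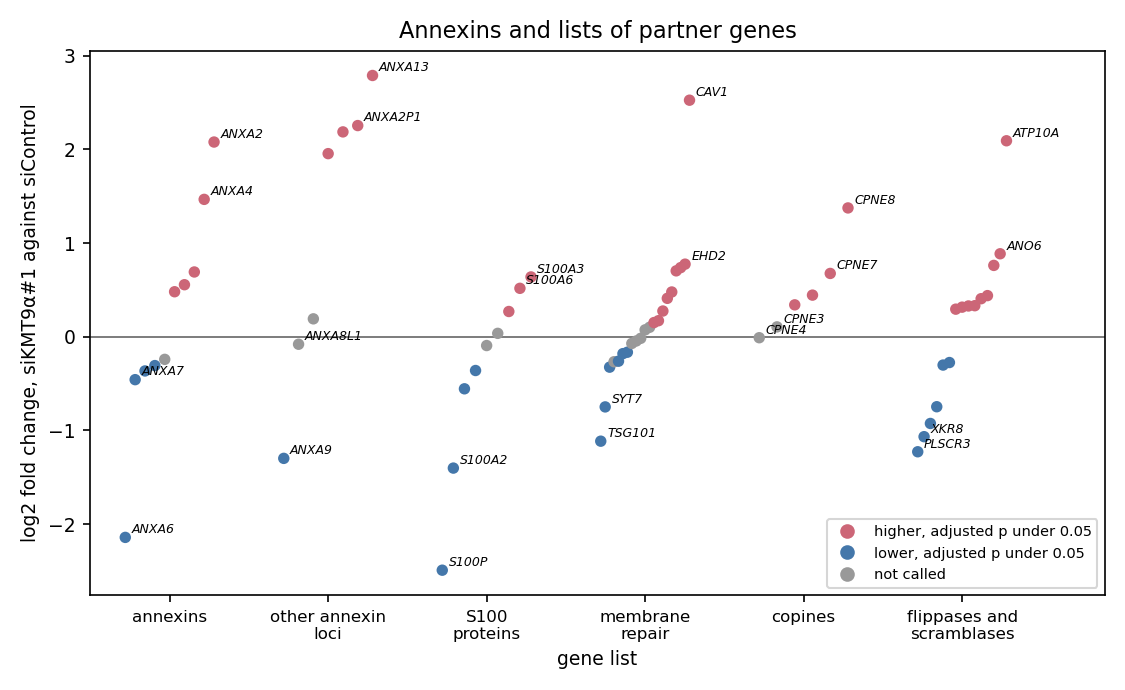
Log2 fold change, siKMT9α#1 against siControl, of each gene tested in the annexins and 5 related lists, ordered within a list by value and coloured by call, with some genes named. Each list has points on both sides of 0, with medians among the related lists from -0.09 for the S100 genes to 1.96 for the other annexin loci, of which 3 are ANXA2 pseudogenes.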

How the data were processed

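Total RNA of 6 A549 samples was sequenced. The authors aligned reads to hg19 with STAR 2.5, counted them with HOMER and deposited estimated counts per RefSeq transcript, which are not normalized and come in steps of 0.5. The comparison columns deposited by the authors hold, per transcript, a fold ratio and p-values before and after adjustment, and were not used here. Counting options and strand are not given in the sources used here. The 1182 rows without symbol or counts were left out, 1 transcript was kept per symbol, and counts were rounded.

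Genes were tested with edgeR 4.0.16 (R 4.3.3; TMM, filterByExpr, quasi-likelihood, no block), over all 13877 genes with Benjamini-Hochberg adjustment. The fit was also run on simulated counts in which few genes changed. In these data most genes were called, so that run cannot show how the scaling acts here. CPM use TMM-adjusted totals. Total counts of 13740097 to 19832395.5 per sample limit precision for ANXA8, ANXA10 and the scarce loci, and intervals and floors cover counting error or the spread of these samples only. The labels call the samples biological replicates without naming separate cultures. Single genes also got an exact permutation test (scipy 1.17.1). Sample numbers were not used as pairs, since the study states no block. Same-numbered samples correlated at r = -0.12, 0.04 and -0.11 in their deviations, which with 3 samples per group cannot show that pairing is absent.

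The members, the lists of related genes and the tests were chosen with earlier results of these data known. Named genes were the 10 members, N6AMT1, other annexin loci, formyl peptide receptors, 11 partners whatever their values, and the 3 largest rises and 3 largest falls called in each other list at 1 CPM or more. S100A13, ATP11A and the single marker genes were named outside this rule, after their values were seen. Exon and pseudogene sequences came from GRCh37 with GENCODE 44, and promoters from the RefSeq table.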

Additional observations from a re-analysis of the deposited data

How the results depend on the processing

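All 10 annexins kept their direction, and the side of the adjusted p threshold of 0.05 they were on, under every alternative that gave a value: library size alone, RLE factors, a count minimum of 10, no filter, counts rounded up, a fit of every transcript, the likelihood-ratio test, DESeq2, a replicate block, GC and length offsets with or without the block (both chosen after seeing the data) and leaving out each sample. The counts of 5 higher and 4 lower annexins held in all of them. The study's threshold was less stable. Library size alone moved the median of all genes by -0.11. It left 2 annexins past the threshold as higher, as did the replicate block, while the block and RLE factors left 1 lower and the likelihood-ratio test gave 4 lower. Leaving out 1 sample gave 2 to 4 higher and 1 to 2 lower: 2 higher without siControl replicate 3 and without siKMT9α#1 replicate 1 or 2, and 1 lower without siControl replicate 2 or 3 or any knock-down sample. Over all genes, 1878 were higher and 1479 lower at this threshold, and 1368 and 974 with the replicate block. These counts were 3184 and 2886 without a filter, and 3086 and 2876 with the likelihood-ratio test. They were 1973 and 1485 with RLE factors, and 1516 and 1862 with library size alone. Leaving out 1 sample moved them too, from 1400 and 926 without siKMT9α#1 replicate 2 to 2287 and 1798 without siControl replicate 1. Among related lists, library size alone gave 10 lower genes of membrane repair of 21 tested, where 6212 of all 13877 genes were lower. A minimum of 10 counts in every sample left 2 other annexin loci higher and 0 lower of 4 tested. Over all 12869 genes kept by this minimum, 4831 were higher and 4978 lower. GC and length offsets gave 5 higher S100 genes of 9 tested, with or without the replicate block. Over all 13652 genes these fits gave 5251 higher, or 5205 with the block. The replicate block changed no call of an annexin at the adjusted p threshold. Depth limits ANXA8, ANXA10 and the loci near 1 CPM, and the causes of these shifts were not tested.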
